A study of Mus musculus with 2 samples.

Results

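Peroxisomes are organelles that import folded proteins, shorten very-long-chain and branched fatty acids, and carry out the first steps of ether lipid synthesis. The peroxins, encoded by the Pex genes, insert their membrane proteins, import their matrix enzymes and drive their division. Plasmalogens are ether phospholipids with a vinyl-ether bond, and ether phospholipids that carry polyunsaturated chains are substrates of the iron-driven lipid peroxidation by which cells die in ferroptosis. Here, 28 mouse genes of these functions were followed by their symbols, and all 28 were found among the 23466 rows of the expression table: 13 peroxins, 5 genes of plasmalogen synthesis, 7 of peroxisomal oxidation and 3 listed as peroxisomal membrane proteins. Of the last, the mouse symbol Pmp22 belongs to peripheral myelin protein 22 and not to the peroxisomal membrane protein of the same older name, which is encoded by Pxmp2. Pmp22 was counted as a member by symbol and each summary is also given without it where it moves.

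The study treated cultures labelled primary microglia, the macrophages of the central nervous system, to induce ferroptosis. The control library came from a culture given only the vehicle DMSO, and the other library from a culture that received iron at 1600 μM and RSL3 at 1 μM. RSL3 is a small molecule that inactivates the lipid hydroperoxide reductase GPX4. The labels state no strain, age or treatment time, and as both agents went into the same culture the part of each cannot be told apart. Each group had 1 library, so differences carry no replicate error and no test, and they describe these libraries. In bulk RNA, fewer cells of a type and less RNA per cell cannot be told apart.

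Levels are FPKM, fragment numbers divided by transcript length and by sequencing yield, and can be compared between genes because they are per length. A gene was called measured at 1 FPKM or more in either library, which 11771 genes reached. Differences are on the scale of log2(FPKM + 1), iron plus RSL3 minus DMSO, and a gene was called higher or lower at 2-fold on that scale, where weak genes show smaller differences than their FPKM ratios. Over all measured genes the median difference was -0.38, with quartiles of -0.73 and 0.01, so members are read against that shift. Defining markers of the labelled cell type were weak: Csf1r was at 0.47 FPKM with DMSO and 0.39 FPKM with iron plus RSL3, Cx3cr1 and Aif1 were listed at 0 in both, and 7 of 12 microglia markers stayed under 1 FPKM. The summed level of 10 fibroblast and mural markers was 4393 FPKM with DMSO and 3347 FPKM with iron plus RSL3, and 8 of the 10 were lower in the treated library with a median difference of -0.33. All levels below therefore come from cultures in which these mesenchymal transcripts were abundant, and the part of such cells in the differences was not tested.

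Most of the peroxisomal genes were lower in the culture given iron plus RSL3. Of the 28 members, 24 were measured, 21 of these had a difference below 0, and 14 lay below the median of all measured genes. At 2-fold, 5 of the 24 were lower, the peroxins Pex2, Pex26 and Pex11a and the oxidation genes Hsd17b4 and Amacr, against 11.8% of all measured genes. None was 2-fold higher, against 4.25% of all measured genes. The median difference of the measured members was -0.55, and -0.61 without Pmp22, beside -0.38 for all measured genes. The share of measured members below 0 was 87.5%, beside 74.3% of all measured genes. The count depends on the scaling: all genes split into 500 higher and 1384 lower as deposited, and into 685 higher and 803 lower when the libraries were centred on the median ratio of abundant genes. After that centring only Pex2 and Amacr of the members passed 2-fold, 2 of 25 measured members beside 6.77% of all measured genes, and none was 2-fold higher, beside 5.78%. With both libraries set to equal totals, 6 of 24 members passed, with Gnpat added, beside 16.8% of all measured genes, and none was higher, beside 3.62%. A pseudocount of 0.1 FPKM also gave 6 of 24, with Ehhadh added, beside 20.2% lower and 5.56% higher of all measured genes. At 1.5-fold, 12 of 24 members were lower and none higher, beside 34.7% and 8.28%. On GRCm38, GENCODE M21 places Pex2 at chr3:5560188-5576239 on the minus strand, Pex26 at chr6:121183667-121198837 on the plus strand and Pex11a at chr7:79735957-79743131 on the minus strand. It places Hsd17b4 at chr18:50128201-50196269 and Amacr at chr15:10981756-10996626, both on the plus strand. A member that passed the filter only through the control library had to be lower, which holds for Pex11a, Pex26 and Ehhadh, so the counts are descriptions.

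**Figure D1:**
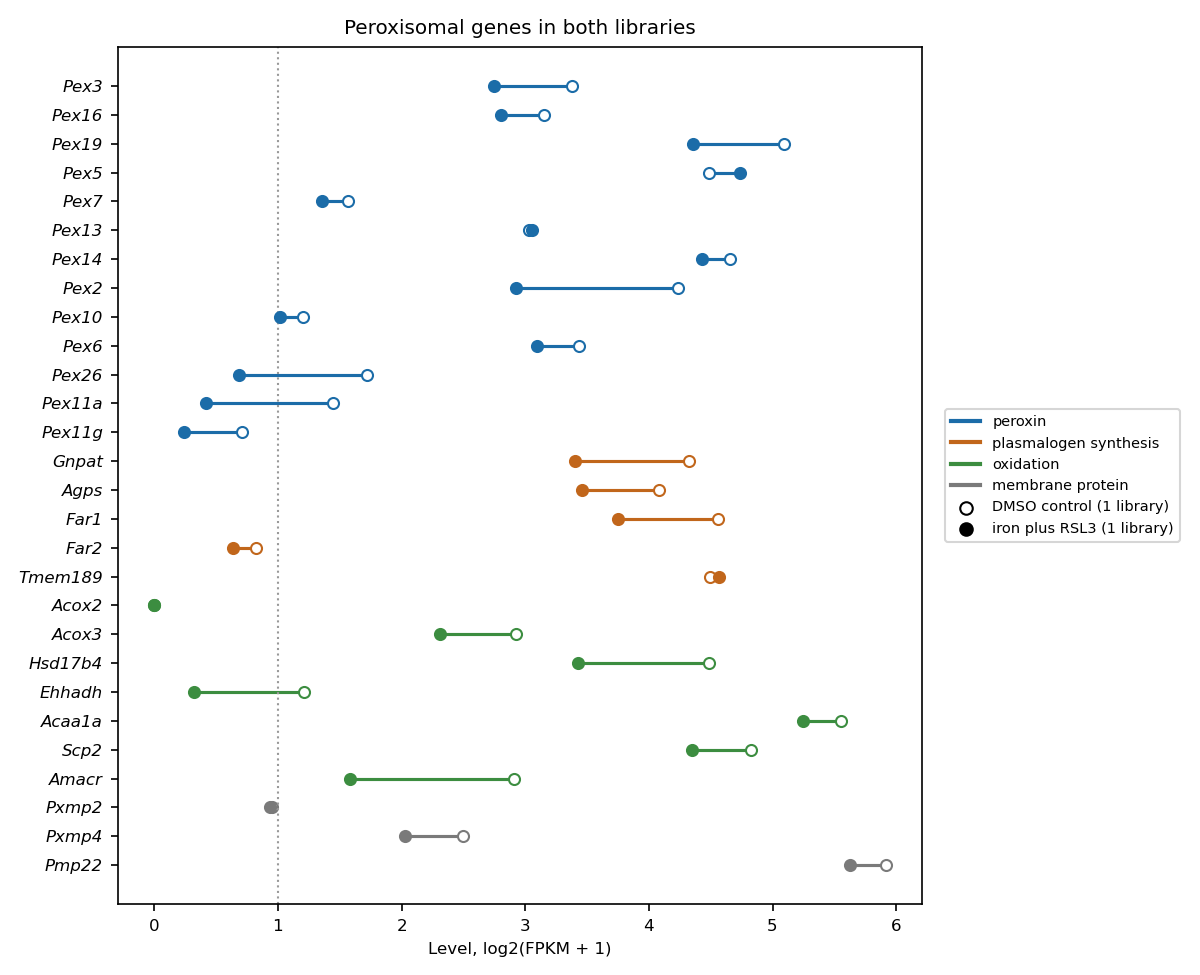
Level of each of the 28 members as log2(FPKM + 1) in the DMSO library (open points) and the iron plus RSL3 library (filled points), coloured by class, with the filter of 1 FPKM as a dotted line. The filled point lies to the left of the open point for all members but Pex5, Pex13, Tmem189 and Acox2, and the last is listed at 0 in both libraries.

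**Figure D2:**
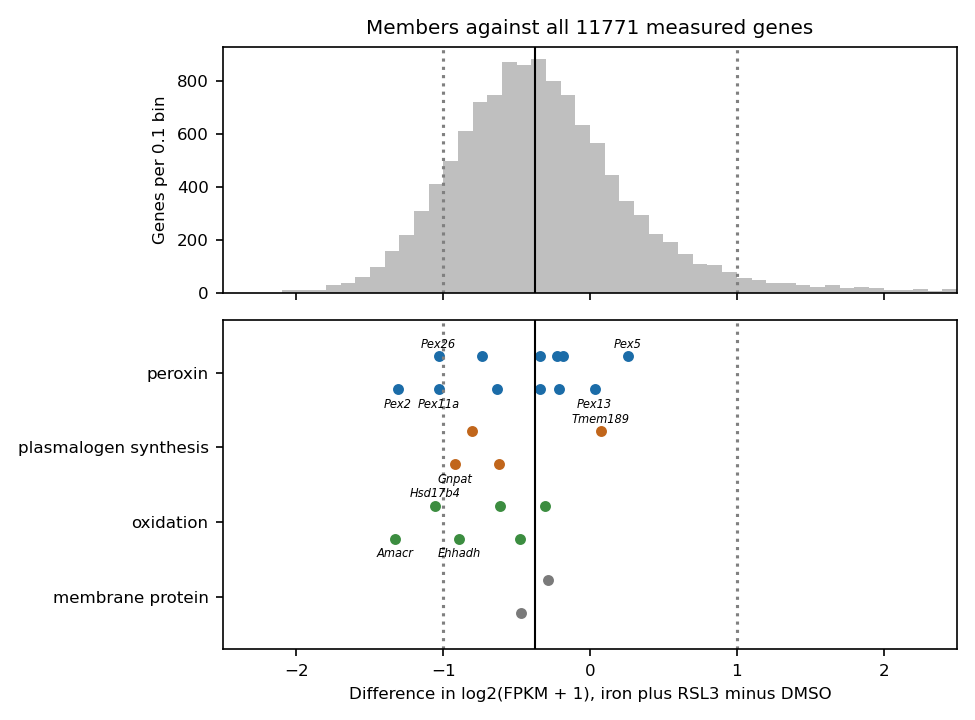
Differences in log2(FPKM + 1) of all 11771 measured genes as a histogram (top) and of the 24 measured members by class (bottom), with the median of all genes as a solid line and 2-fold as dotted lines; 100 genes lie outside the plotted range of 2.5 on either side. The members with the lowest values and the 3 above 0 are named, and no member reaches the upper dotted line.

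Among measured members, Ehhadh, Pex11a and Pex26 had the lowest treated levels and the largest ratios of control to treated FPKM. All 3 passed the filter only through the control library. A low treated level and a fall in ratio therefore come together by the filter, and their pairing is not a result. The 250 bases before the annotated start of these 3 genes are shown as the DNA next to the starts of the genes with the largest falls in ratio, from RefSeq on GRCm38.p6, 5′ to 3′ on the strand of the gene. Capitals mark matches to the motifs searched, other than the GC box and the CCAAT box.
Pex11a: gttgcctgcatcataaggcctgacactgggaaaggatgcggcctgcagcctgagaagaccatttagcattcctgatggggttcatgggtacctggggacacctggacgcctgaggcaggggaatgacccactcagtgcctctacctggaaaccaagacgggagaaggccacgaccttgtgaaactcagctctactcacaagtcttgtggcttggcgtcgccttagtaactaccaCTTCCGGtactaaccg
Pex26: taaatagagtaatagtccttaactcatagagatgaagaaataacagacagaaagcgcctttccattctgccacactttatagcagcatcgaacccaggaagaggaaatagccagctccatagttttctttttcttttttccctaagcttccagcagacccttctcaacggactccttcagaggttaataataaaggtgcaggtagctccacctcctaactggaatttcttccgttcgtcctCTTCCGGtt
Ehhadh: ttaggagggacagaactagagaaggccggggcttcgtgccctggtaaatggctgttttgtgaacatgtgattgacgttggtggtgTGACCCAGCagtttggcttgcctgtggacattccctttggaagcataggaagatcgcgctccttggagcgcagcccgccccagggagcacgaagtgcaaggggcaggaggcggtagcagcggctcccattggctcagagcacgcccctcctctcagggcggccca
The Pex11a stretch is chr7:79743132-79743381 on the minus strand, the Pex26 stretch chr6:121183417-121183666 on the plus strand and the Ehhadh stretch chr16:21787835-21788084 on the minus strand. Pex11a and Pex26 each hold the letters CCGGAAG, a core bound by ETS factors, on the strand opposite to the gene, from 16 to 10 bases before the start in Pex11a and from 9 to 3 bases before it in Pex26. These letters were found before 4 of the 22 members with a RefSeq promoter, Pex11a, Pex26, Pex6 and Gnpat, which is 18.2% beside 16.6% of 8945 measured genes. Ehhadh holds a match to TGACNNNGC, the core of the antioxidant response element, from 165 to 157 bases before the start. That core stood before 4 of 22 members (Acox2, Ehhadh, Pex11g and Pex7) and 14.01% of measured genes. The 22 members include Acox2, Pex11g and Far2, which were not measured, whereas the shares beside them cover measured genes only. The motif shares of members and measured genes are therefore not on like terms, here and below. The promoter set used held no entry for 6 members: Pex2, Amacr, Hsd17b4, Pex19, Tmem189 and Pxmp2. The sequences and motif shares thus leave out Pex2, Amacr and Hsd17b4, which were among the members called 2-fold lower.

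In all, 12 motifs were searched on both strands of the 250 bases. The direct repeat of nuclear receptor half-sites, the form that PPAR receptors bind, stood before 0 of 22 members and 0.034% of measured genes, and its half-site AGGTCA before 2 of 22 members (Pex11g and Scp2) and 12.5% of measured genes. The half-site is contained in the repeat. The E-box CACGTG stood before 1 member, Gnpat, and 10.2% of measured genes, and the cAMP response element TGACGTCA before 1, Pex13, and 3.20%. The heat shock arrangements GAANNTTC and TTCNNGAA stood before 1 and 3 members and 6.05% and 6.98% of measured genes. The NRF1 motif stood before 1 member, the unmeasured Pex11g, and 9.83% of measured genes, and the YY1 motif before 0 members and 0.57%. The CCAAT box stood before 10 of 22 members and 41.2% of measured genes, and the GC box GGGCGG before 17 of 22, or 77.3%, beside 66.4%. Matches describe letters in these windows only.

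Among the peroxins that build the membrane, all 3 genes were lower in the treated library without reaching 2-fold. Pex19, which encodes the soluble chaperone and receptor of peroxisomal membrane proteins, was the most abundant peroxin of the control at 33.1 FPKM and stood at 19.5 FPKM in the treated library, a difference of -0.73. Pex3, which encodes its docking partner on the membrane, was at 9.39 and 5.70 FPKM, a difference of -0.63. Pex16, which encodes a membrane peroxin that recruits the Pex3 product, was at 7.87 and 5.99 FPKM, a difference of -0.34. Pex19 and Pex3 thus lay below the median of all measured genes and Pex16 just above it. The body of Pex3 overlaps that of Adat2 and the body of Pex16 that of Large2, each on the opposite strand, and the protocol names no step that marks strand.

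Import receptors and docking peroxins had small differences, from -0.22 to 0.26, as did Pex10, taken up below, at -0.18. Pex5, which encodes the receptor for the common C-terminal targeting signal of matrix enzymes, was the only peroxin above 0 under all 7 settings tried, which were the values as deposited and 6 alternatives: it was at 21.4 FPKM with DMSO and 25.7 FPKM with iron plus RSL3, a difference of 0.26 that ranged from 0.11 to 0.47. Pex7, which encodes the receptor for the N-terminal signal used by few enzymes, among them those encoded by Agps and Acaa1a, was at 1.96 and 1.56 FPKM, a difference of -0.21. At these levels the message of the Pex5 receptor was over an order of magnitude more abundant per length than that of Pex7 in both libraries. Pex14, which encodes the docking peroxin that receives loaded receptors, was at 24.2 and 20.6 FPKM, a difference of -0.22 that shrank to -0.01 after centring. Pex13, its partner at the docking site, was at 7.16 and 7.33 FPKM, a difference of 0.03 that changed sign under 2 of the 7 settings, to -0.11 with equal totals. The body of Pex13 overlaps that of Pus10 on the opposite strand.

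The genes for export of the receptor after import diverged within their complexes. Pex2, which encodes a RING subunit of the ubiquitin ligase that marks Pex5 for recycling, was at 17.8 FPKM with DMSO and 6.61 FPKM with iron plus RSL3, 2.70 times lower. Its difference of -1.31 was the lowest of the peroxins and stayed past 2-fold under all 7 settings tried, between -1.44 and -1.12. Pex10, another RING subunit, was at 1.296 and 1.03 FPKM, a difference of -0.18, so a weak message and an abundant one of the same ligase differed by unequal amounts. Pex26, which encodes the membrane anchor of the ATPase that pulls the receptor out, was at 2.30 and 0.61 FPKM, 3.75 times lower, a difference of -1.03 that became -0.94 after centring and -1.75 with a pseudocount of 0.1 FPKM. Pex6, which encodes a subunit of that ATPase, was at 9.84 and 7.55 FPKM, a difference of -0.34.

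Peroxins of division were weak and lower. Pex11a, which encodes a membrane-elongating peroxin that PPAR-alpha agonists induce in rodent liver, was at 1.73 FPKM with DMSO and 0.34 FPKM with iron plus RSL3, 5.15 times lower. Its difference of -1.03 became -0.97 after centring and -2.07 with a pseudocount of 0.1 FPKM. Pex11g, its paralogue, stayed under the filter at 0.64 and 0.18 FPKM, 3.46 times lower. For genes with 1 annotated transcript, the product of FPKM and length gathered at steps of 60.4 with DMSO and 54.7 with iron plus RSL3. At these steps 34.0% and 37.0% of low values lay within 0.05 of a whole step, beside 10% for an even spread at a fixed step. Each step was chosen from a range as the one with the highest such share, so the 10% is not a like comparison. If a step is 1 fragment, which was not established, Pex11a on its longest transcript of 2241 bases rests on about 64 and 14 fragments and Pex11g on 2870 bases on about 30 and 10. Whole fragments were not recovered, so no interval is given.

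Of 9 other peroxins and import accessory genes listed, 8 were found and 7 measured, and the median difference was -0.27. At 2-fold 1 was lower, or 14.3% beside 11.8% of all measured genes, and none was higher, beside 4.25%; after centring none passed. The most abundant were Usp9x, which encodes a deubiquitinase reported to act on the Pex5 product in human cells, at 18.1 FPKM in both libraries, and Acbd5, which encodes a tether to the endoplasmic reticulum, at 14.9 and 9.99 FPKM.

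Of the genes of plasmalogen synthesis, those of the peroxisomal steps were lower and that of the final step was not. Gnpat, which encodes the acyltransferase that starts ether lipid synthesis from dihydroxyacetone phosphate, was at 19.0 FPKM with DMSO and 9.58 FPKM with iron plus RSL3, 1.99 times lower, a difference of -0.92. Far1, which encodes the reductase that supplies the fatty alcohol and is regarded as rate-limiting, was at 22.5 and 12.5 FPKM, a difference of -0.81. Agps, which encodes the enzyme that exchanges the acyl chain for that alcohol and so makes the ether bond, was at 16.0 and 10.03 FPKM, a difference of -0.62. These 3 messages were of like abundance in the control and lay below the median of all genes in their differences, but none passed 2-fold as deposited. Far2, the second reductase gene, stayed under the filter at 0.77 and 0.55 FPKM. Tmem189, which encodes the desaturase that introduces the vinyl-ether bond in the endoplasmic reticulum, was at 21.6 and 22.7 FPKM, a difference of 0.07 that changed sign under 2 of the 7 settings, to -0.08 with equal totals.

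The median difference of the 4 measured plasmalogen genes was -0.71. The body of Gnpat shares 88 bases with that of 2810004N23Rik on the opposite strand, which was at 12.5 and 4.51 FPKM. The body of Tmem189 shares 908 bases with that of Cebpb on the opposite strand, which was at 77.0 and 161 FPKM, and reads there cannot be assigned without strand. The read-through locus Gm20431, which shares sequence with Tmem189, was listed at 0 in both libraries. Of 14 other ether lipid genes listed, 13 were found and 12 measured, with a median of -0.27. At 2-fold 1 was lower, or 8.33% beside 11.8% of all measured genes, and none was higher, beside 4.25%. Lpcat1, which encodes a lysophospholipid acyltransferase, was the one past 2-fold at 6.79 and 2.01 FPKM, and the most abundant were Pafah1b3, a catalytic subunit gene of a platelet-activating factor acetylhydrolase, at 17.8 and 21.3 FPKM and Aldh3a2, which encodes a fatty aldehyde dehydrogenase, at 23.6 and 11.96 FPKM. Dhrs7b, singled out after its values were seen as the gene for the reductase that follows Agps, was at 10.1 and 5.39 FPKM, a difference of -0.79.

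**Figure D3:**
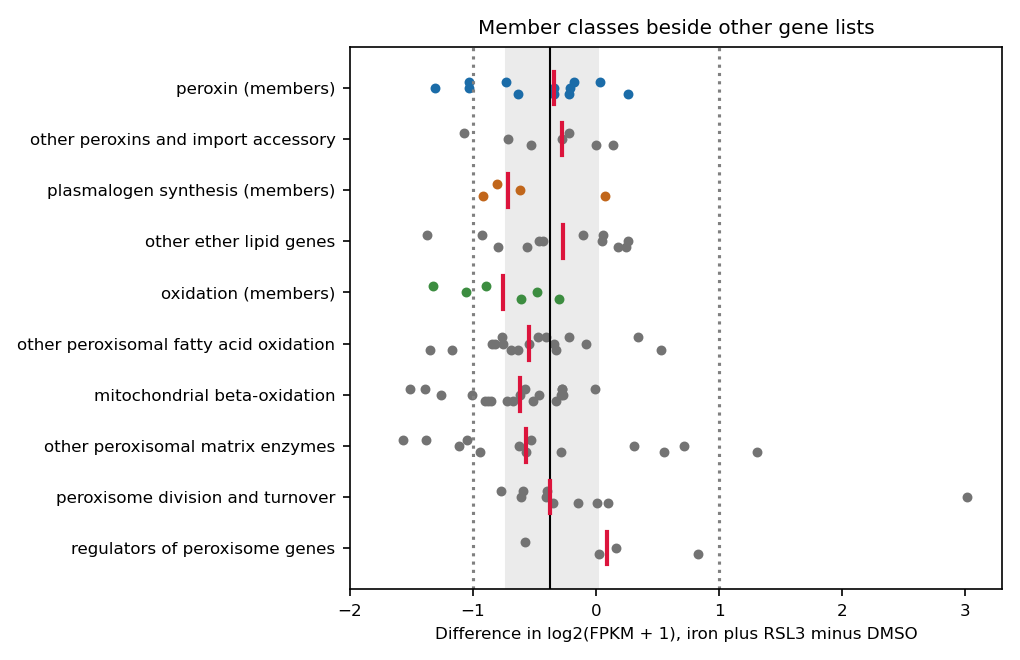
Differences in log2(FPKM + 1), iron plus RSL3 minus DMSO, for each measured gene (points) of the 3 main member classes and 7 other lists, with list medians as red bars, the median of all genes as a solid line, their quartiles as a grey band and 2-fold as dotted lines. The medians of the plasmalogen and oxidation members, -0.71 and -0.75, lie to the left of the line at -0.38, and that of the peroxins, -0.34, lies close to it.

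All 6 measured genes of peroxisomal oxidation were lower in the treated library, with a median difference of -0.75. Among those that open the pathway, Acox3, which encodes an oxidase of branched acyl-CoAs, was at 6.597 FPKM with DMSO and 3.96 FPKM with iron plus RSL3, a difference of -0.61. Acox2, which encodes another branched-chain oxidase and is best known from liver, was listed at 0 in both libraries. Amacr, which encodes the racemase that turns branched acyl-CoAs into the form these oxidases accept, was at 6.53 and 2.00 FPKM, 3.27 times lower. Its difference of -1.33 was the lowest of all members and stayed past 2-fold under all 7 settings tried, between -1.66 and -1.18.

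The middle steps are shared by a pair of bifunctional enzymes. Hsd17b4, which encodes the D-bifunctional protein used for branched and very-long-chain substrates, was at 21.4 FPKM with DMSO and 9.74 FPKM with iron plus RSL3, 2.19 times lower, a difference of -1.06 that became -0.86 after centring. Ehhadh, which encodes the L-bifunctional protein, was at 1.32 and 0.25 FPKM, the largest ratio of all members at 5.30 times lower. On the scale with 1 FPKM added its difference was -0.89, short of 2-fold, and with 0.1 FPKM added it was -2.02. Ehhadh has 1 annotated transcript of 2981 bases, on which the values stand for about 65 and 14 fragments if a step is 1 fragment.

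The thiolases that close the cycle were the most abundant oxidation genes and differed least. Acaa1a, which encodes the thiolase for straight chains, was at 45.9 and 37.0 FPKM, a difference of -0.30. Its close paralogue Acaa1b was at 0.32 FPKM in both libraries, so reads split between the copies have little weight in these values, and the body of Acaa1a also overlaps that of Myd88 on the opposite strand. Scp2, which encodes a thiolase for branched chains and a sterol carrier protein from the same gene, was at 27.3 and 19.3 FPKM, a difference of -0.48, and overlaps Podn on the same strand. In order of difference the oxidation genes ran from Amacr and Hsd17b4 through Ehhadh, Acox3 and Scp2 to Acaa1a.

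Of 23 other genes of peroxisomal fatty acid oxidation listed, 17 were measured and 15 had a difference below 0, with a median of -0.55. At 2-fold 2 were lower, or 11.8%, the same share as of all measured genes, and none was higher, beside 4.25%. The 2 were Crot, which encodes the carnitine transferase for shortened products, at 11.7 and 4.64 FPKM, and Nudt7, which encodes a peroxisomal CoA diphosphatase, at 2.52 and 0.38 FPKM. After centring 1 of the list was 2-fold lower, beside 6.77% of all measured genes. Among the most abundant of the list was Slc25a17, which encodes a peroxisomal cofactor carrier, at 31.3 and 24.6 FPKM.

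Mitochondrial beta-oxidation, which shortens common fatty acids, was set beside the peroxisomal genes. All 19 measured genes of 20 had a difference below 0, beside 74.3% of all measured genes, and the median was -0.62. At 2-fold 4 were lower, or 21.1% beside 11.8% of all measured genes, and none was higher, beside 4.25%. After centring 3 were lower, beside 6.77%. Those past 2-fold were Cpt2, for carnitine transfer, at 11.2 and 3.27 FPKM, the acyl-CoA dehydrogenase genes Acad9 at 9.90 and 3.16 FPKM and Acads at 16.4 and 6.26 FPKM, and Hadhb, a thiolase subunit, at 25.1 and 11.97 FPKM. The most abundant were the electron carrier genes Etfb at 71.6 and 58.9 FPKM and Etfa at 44.99 and 36.7 FPKM. The medians of the peroxisomal oxidation members and the mitochondrial list, -0.75 and -0.62, both lay below that of all genes, and with 1 library per group the difference between them could not be tested.

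Among the 3 listed as membrane proteins, Pmp22 was the most abundant member of all and the remainder were weak. Pmp22, a component of peripheral myelin that is also made outside it, was at 59.3 FPKM with DMSO and 48.4 FPKM with iron plus RSL3, a difference of -0.29. Of 10 oligodendrocyte and Schwann cell markers, 7 stayed under 1 FPKM in both libraries, among them Mog and Mag, listed at 0, and Sox10, at 0.04 and 0 FPKM. The other 3 were Prx at 1.01 and 0.97 FPKM, Mbp at 3.54 and 1.74 FPKM, and Egr2, which is also an early response gene, at 1.304 and 7.88 FPKM. Pxmp4, which encodes a peroxisomal membrane protein, was at 4.64 and 3.08 FPKM, a difference of -0.47. Pxmp2, which encodes a channel-forming protein of the peroxisomal membrane, stayed under the filter at 0.94 and 0.92 FPKM.

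**Figure D4:**
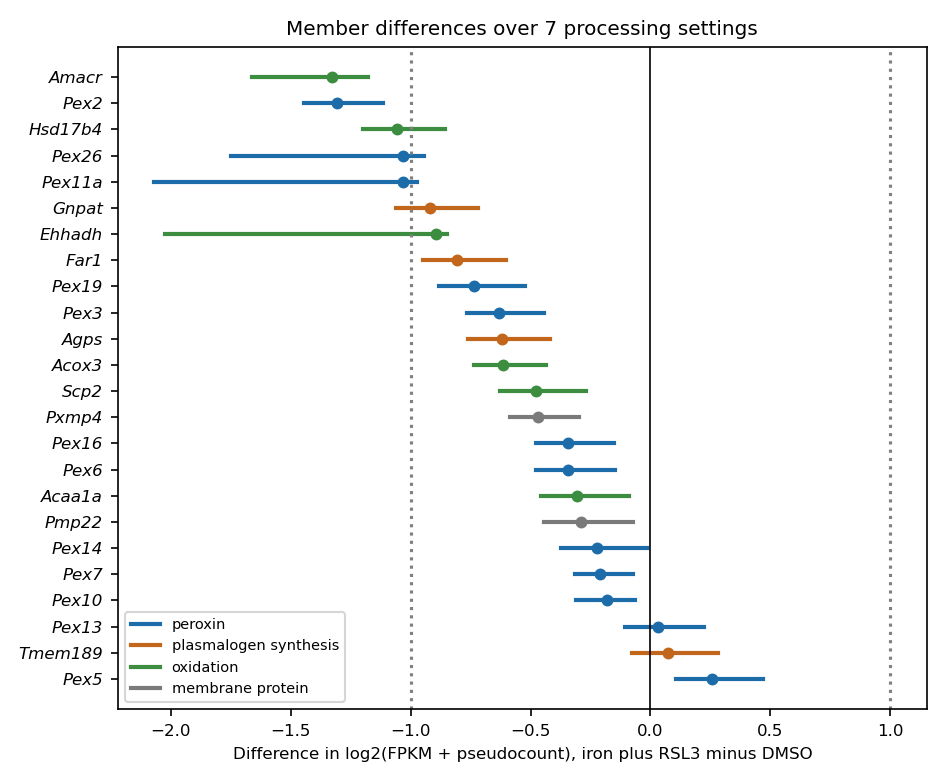
Difference of each measured member on the log2 scale as reported (points) and its range over the settings under which it could be measured, at most 7 (lines), by class, with 2-fold as dotted lines. The ranges of Amacr and Pex2 lie wholly below 2-fold, those of Pex13 and Tmem189 cross 0, and that of Pex5 lies wholly above 0.

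Over the processing settings the order of the members was led by few genes. Under all 7 settings Pex2 and Amacr were 2-fold lower, and Hsd17b4 was under 6 of 7. Pex26 and Pex11a passed under 5 of the 6 settings that measured them, Gnpat under 1 of 7, with equal totals, and Ehhadh under 1 of 6, with the smaller pseudocount. No member was 2-fold higher under any of the 7 settings.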

How the data were processed

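Bulk poly(A) RNA of 2 cultures labelled primary microglia was sequenced, 1 library per group, with groups from the sample titles and columns from the library names. The unit of the deposited values is FPKM, computed by the authors. The submitters' processing notes list HISAT2, StringTie, DESeq2 and edgeR and the build GRCm38; the labels give no version, annotation or filter. FPKM totals were 385141 and 429250, and depth in reads is unknown. Of 23466 rows, 22022 matched GENCODE M21, and 27 symbols turned into dates were restored by identifier. Differences were log2(FPKM + 1), treated minus control, over genes at 1 FPKM or more in either library, called at 2-fold. No count model or test was applied. Alternatives were a pseudocount of 0.1 FPKM, a filter of 5 FPKM or none, 3 rescalings, a 1.5-fold rule and leaving out Pmp22. All 28 members are named; from other lists, those past 2-fold and the 2 most abundant are, apart from some genes not reported here. Members and lists were chosen with earlier results of these data known. Calculations used Python 3.11.15, numpy 2.4.6 and pandas 2.3.3 and were tested on simulated libraries.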

Additional observations from a re-analysis of the deposited data

How the results depend on the processing

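With a pseudocount of 0.1 FPKM the oxidation median moved from -0.75 to -0.92 and 2379 of all genes were 2-fold lower instead of 1384. At a filter of 5 FPKM 3 of 18 measured members were 2-fold lower, or 16.7% beside 11.7% of all genes. None was higher at that filter, beside 4.74%, and the oxidation median was -0.61. Without a filter the median of all genes was -0.20. With equal totals the medians were -0.68 for the members, -0.48 for the peroxins, -0.86 for plasmalogen synthesis and -0.51 for all genes. Centring on the median ratio left 2 members and 803 of all genes 2-fold lower, with medians of -0.30 for the members, -0.15 for the peroxins, -0.51 for plasmalogen synthesis, -0.64 for oxidation and -0.18 for all genes. At 1.5-fold, a wider rule by construction, 12 members were lower and none higher, beside 4089 lower and 975 higher of all genes. The median of the regulators of peroxisome genes, 0.09, changed sign to -0.013 without a filter and to -0.040 with equal totals; the cause was not tested. Under each of the 7 settings the member median lay below that of all genes, by 0.11 to 0.27. Summing Acaa1a with Acaa1b, an alternative chosen after seeing the data, left its difference at -0.30. No paired analysis was possible because each group has 1 library. Members near or under 1 FPKM, among them Pxmp2, Far2, Pex11g, Pex11a and Ehhadh, have the least depth behind their values, and the number of fragments is not known.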

Other observations

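Other matrix enzymes of the peroxisome went both ways. Of 21 listed, 13 were measured, with a median difference of -0.57. At 2-fold 4 were lower, or 30.8% beside 11.8% of all measured genes, and 1 was higher, or 7.69% beside 4.25%. Both matrix proteases were lower: Tysnd1, which encodes the protease that trims imported oxidation enzymes, was at 16.1 FPKM with DMSO and 5.58 FPKM with iron plus RSL3, and Lonp2, the other, was at 23.3 and 10.2 FPKM. Mlycd, which encodes malonyl-CoA decarboxylase, was at 5.37 and 1.15 FPKM. The mevalonate pathway genes of the list split, with Mvk at 36.4 and 17.1 FPKM, Pmvk at 15.5 and 39.9 FPKM, and Idi1, among the most abundant of the list, at 64.3 and 106 FPKM. After centring 2 of the list were 2-fold lower, beside 6.77% of all measured genes. The most abundant was Prdx5, which encodes a peroxiredoxin, at 99.8 and 124 FPKM, and Cat, which encodes the catalase that removes peroxisomal hydrogen peroxide and was singled out after its values were seen, was at 27.1 and 40.1 FPKM, a difference of 0.55.

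Of 10 measured genes of peroxisome division and turnover, none was 2-fold lower, beside 11.8% of all measured genes, and 1 was higher, beside 4.25%, with a median of -0.37. Sqstm1, which encodes the autophagy receptor p62, was at 239.9 FPKM with DMSO and 1950.1 FPKM with iron plus RSL3, a difference of 3.02, and Fis1, which encodes a fission adaptor, was at 55.1 and 58.96 FPKM. Of 9 regulators of peroxisome genes, 4 were measured and none passed 2-fold as deposited, while after centring 1, Ppard, was 2-fold higher, beside 5.78% of all measured genes. Ppard, which encodes PPAR-delta, was at 15.8 and 28.7 FPKM, Rxrb at 16.2 and 16.4 FPKM, and Ppara, singled out after its values were seen, was near 0 at 0.06 and 0.05 FPKM.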
